A study of Homo sapiens with 4 samples.

Results

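The genes described here are 44 human proteases and protease inhibitors of the extracellular matrix, taken by gene symbol: 21 matrix metalloproteinases (MMPs), 19 proteases of the ADAMTS family and 4 tissue inhibitors of metalloproteinases (TIMPs). Of these, 42 were measured, each by 1 feature, among 21448 features with 17687 distinct gene symbols. ADAMTS7 and TIMP2 had no feature under their symbol and were not analysed here. Gene expression was measured in total RNA of HeyA8-MDR, a multidrug-resistant human ovarian carcinoma line kept under 300 ng/ml paclitaxel, 15% FBS and 0.1% gentamicin sulfate. The 2 arrays labelled miR204 came from cells given an inhibitor of miR-204-5p, and the other 2 arrays, which carry the cell name alone, were taken as the cells given the control inhibitor named in the study design. Since the note on treatment names the inhibitor for every sample, this assignment rests on the titles and the design. All cells were of this single line. Whether the replicates were grown separately is not stated, so p-values here reflect only array-to-array spread, possibly of technical origin.

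MMPs are zinc-dependent endopeptidases that are made as inactive proenzymes and act outside the cell or at its surface on collagens, gelatin, proteoglycans, growth factors and other proenzymes. ADAMTS proteases share the zinc-dependent catalytic domain and carry thrombospondin repeats that bind them to the matrix, where they trim proteoglycans, procollagens and von Willebrand factor. TIMPs bind the active site of these enzymes, and in ovarian carcinoma the system is known for peritoneal invasion and for the release of factors that act on vessels.

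The inhibitor is an antisense oligonucleotide against a mature microRNA, and the blocked sequence is shown here with that of miR-211-5p, which has the same seed. Sequences are from RefSeq (GRCh38.p14), on the minus strand of chr9:70810031-70810052 and the minus strand of chr15:31065095-31065116, and capitals mark the seed, bases 2 to 8.
hsa-miR-204-5p: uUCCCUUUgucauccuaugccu
hsa-miR-211-5p: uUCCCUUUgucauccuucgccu
The level of the microRNA itself was not analysed here, and target sites in the transcripts of these genes were not searched.

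Each array value is a log2 expression value made with RMA, which corrects background, equalises distributions and summarises the probes of a feature, so a difference of 1 is a change of 2-fold. Array medians were 5.59 and 5.61 with the inhibitor and 5.65 and 5.68 in controls, and the number of arrays limits the precision. Standard deviations over all features were 2.08 and 2.13 with the inhibitor, against 2.20 and 2.21. The control arrays correlated at 0.9952 and the inhibitor arrays at 0.9862. Inhibitor array 2 correlated more closely with the controls (0.9888 and 0.9879) than with inhibitor array 1. The cause was not tested. Features differ in probe brightness, so a value is compared here between arrays and not between genes. In place of detection calls, which were not analysed here, a feature is called dim where its mean over the 4 arrays lay under 3.965, the 25th percentile of all features. Of 10 ovarian carcinoma and epithelial markers, PAX8, WT1, KRT7, KRT8 and KRT18 lay above the median of feature means (5.635). MUC16 and KRT19 lay below that median without being dim, and EPCAM, CDH1 and MSLN were dim. All 4 mesenchymal markers, VIM, CDH2, ZEB1 and SNAI2, lay above the median. These classes describe the brightness of each feature, which depends on its probes, and do not establish which cells were present. Among markers of other cells, 3 of 6 measured for fibroblasts, 2 of 6 for leukocytes and 2 of 5 for endothelium were dim, and their part in the results was not tested.

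Across the 42 measured genes, the clearest difference was a higher value of MMP1, the interstitial collagenase, with the miR-204-5p inhibitor. The stromelysin MMP10 and the aggrecanase ADAMTS4 also had higher values, and the stromelysin MMP11 and the procollagen proteinase ADAMTS3 had lower ones, at an unadjusted p under 0.05. In RNA from whole cultures, fewer cells with a transcript and less of it per cell cannot be told apart. None of the 42 passed an adjusted p of 0.05 in limma, against 11 of all 21448 features (0.0513%). At an unadjusted p under 0.05, 3 genes were higher (7.14% of the 42, against 5.11% of all features) and 2 were lower (4.76%, against 12.8% of all features). By direction alone, 22 were higher (52.4%, against 40.5% of all features) and 20 lower. The 42 genes were not matched in level to all features, and differences depended on level across the array. The median log2 difference of the 42 was 0.025, beside -0.07 over all features.

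In 10 genes both inhibitor arrays lay above both controls (23.8%, against 16.5% of all features), and in 8 both lay below (19%, against 33.8%). A group of 2 arrays against 2 cannot give an exact permutation p under 0.333, so single genes were judged from the fit over all features. Of the 42 genes 15 were dim, and 9 lay above the median of feature means, among them MMP14, MMP16, ADAMTS1, ADAMTS12 and TIMP1.

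**Figure D1:**
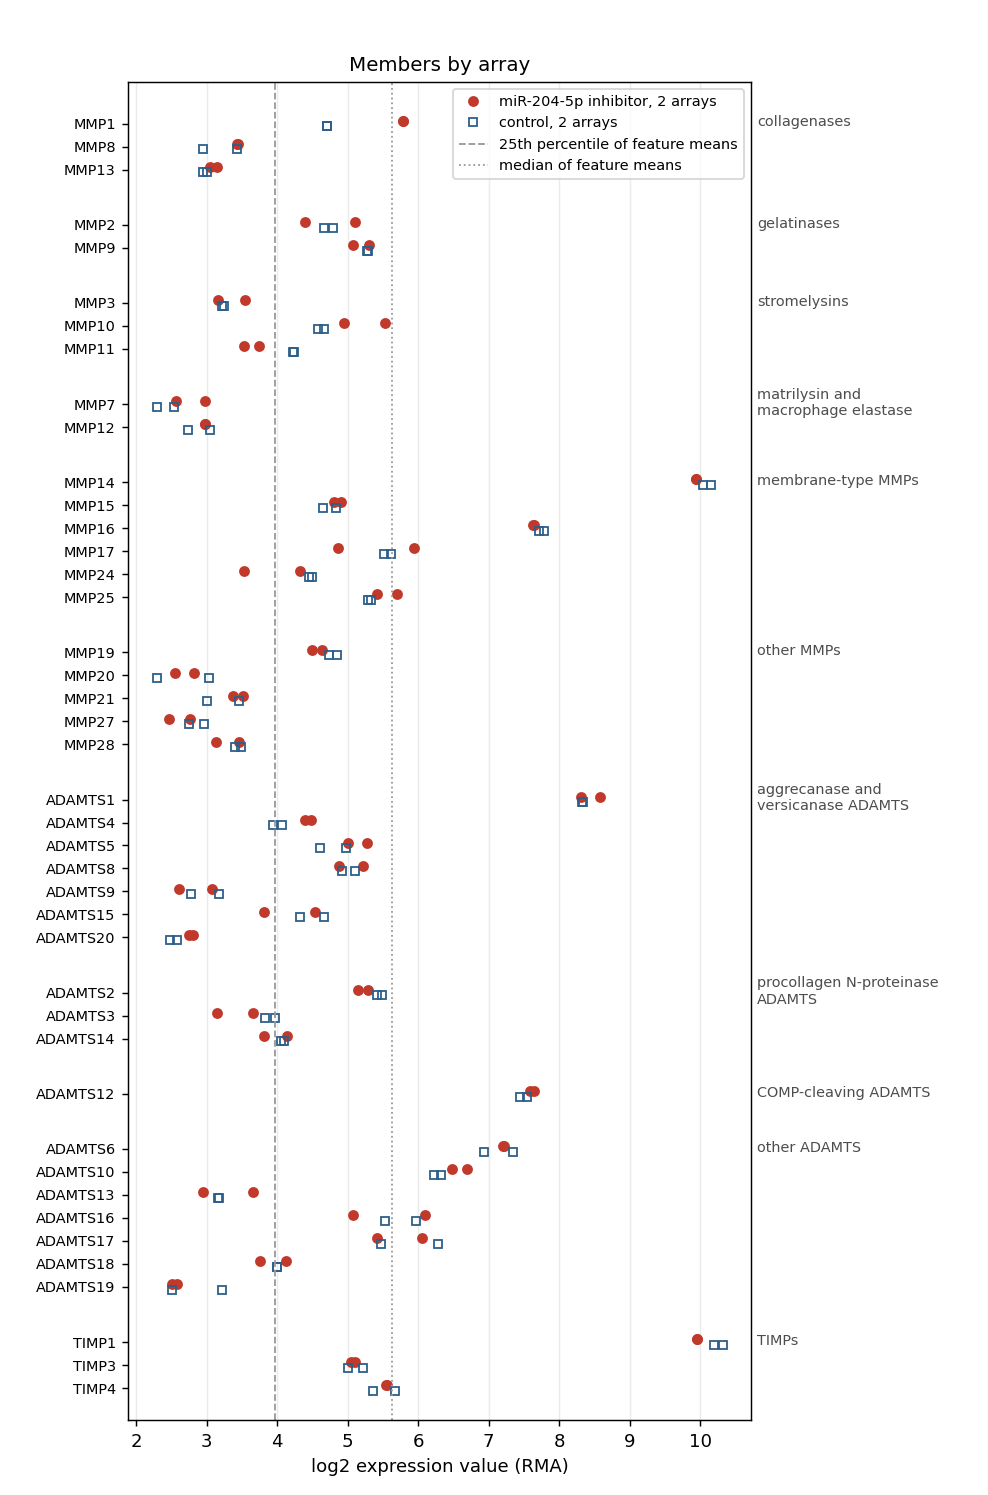
Log2 expression values (horizontal axis) of the 42 measured genes, grouped by role, with filled circles for the 2 inhibitor arrays and open squares for the 2 control arrays; the dashed and dotted lines mark the 25th percentile (3.965) and the median (5.635) of feature means. MMP1 stands out with inhibitor values of 5.78 and 5.79 against control values of 4.70 and 4.71, while most other genes overlap or nearly touch.

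The collagenases cut the triple helix of fibrillar collagens, a step that few other proteases can make. MMP1 had values of 5.78 and 5.79 in inhibitor arrays, against 4.70 and 4.71 in control arrays. The groups were far apart, and arrays of the same group nearly coincided. The difference was 1.08 (SE 0.139, 95% interval 0.75 to 1.41), or 2.11-fold, with an adjusted p of 0.10 in limma, above the threshold. It was the only one of the 42 with at least 2-fold and an unadjusted p under 0.05, a combination met by 0.504% of all features, and it ranked 43 among all 21448 differences from the highest.

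Whether MMP1 passed depended on how the spread was estimated. The SE of 0.139 was set mainly by the spread of other features, since the 2 arrays of each group differed by only 0.01. With a prior that follows expression level, MMP1 passed (adjusted p = 0.0076), as did 7.11% of all features. It also passed when dim features were left out (adjusted p = 0.047, with 0.236% of features passing) and when quantile normalization was joined with that prior (0.013, with 2.61% passing). With 1 array left out the MMP1 difference was 1.075 to 1.085. Those fits cannot decide whether MMP1 passes, since 1 group then holds 1 array. Its log2 difference stayed between 1.075 and 1.145 over the settings run.

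MMP8, the neutrophil collagenase, had 3.43 and 3.44 in inhibitor arrays and 3.43 and 2.95 in control arrays, so the groups overlapped. MMP13, a collagenase of cartilage and bone, had 3.15 and 3.05 against 2.94 and 3.0. Both genes are dim, with differences of 0.245 (95% interval -0.21 to 0.70) and 0.13 (-0.21 to 0.47), and neither passed.

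The stromelysins split in direction. MMP10, stromelysin-2, which cleaves many matrix proteins and activates procollagenases, had 5.53 and 4.95 in inhibitor arrays, against 4.58 and 4.66 in control arrays. The inhibitor arrays were both above the controls but stood 0.58 apart from each other. The difference was 0.62 (SE 0.211, 95% interval 0.12 to 1.12), or 1.54-fold, with an adjusted p of 0.22. Leaving out inhibitor array 1 gave 0.33, and leaving out inhibitor array 2 gave 0.91.

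MMP11, stromelysin-3, is activated inside the cell by furin and degrades matrix proteins only weakly. It had 3.53 and 3.74 in inhibitor arrays, against 4.23 and 4.24 in control arrays. Both inhibitor values lay below both controls and below the 25th percentile of feature means. The difference was -0.60 (SE 0.15, 95% interval -0.96 to -0.24; adjusted p = 0.17), and, the gene being dim over the 4 arrays, its fold is uncertain. MMP3, stromelysin-1, had 3.54 and 3.16 with the inhibitor and 3.21 and 3.25 in controls, which overlap.

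MMP7, matrilysin, a small enzyme of epithelia without the hemopexin domain, had 2.98 and 2.56 in inhibitor arrays and 2.30 and 2.53 in control arrays. These values hardly separate, and the difference of 0.355 (95% interval -0.10 to 0.81) did not pass. MMP12, the macrophage elastase, had 2.97 on both inhibitor arrays and 3.04 and 2.74 in controls. Both genes are dim.

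The gelatinases, which degrade denatured collagen and type IV collagen of basement membranes, showed no difference beyond the spread. MMP2, gelatinase A, had 5.10 and 4.40 with the inhibitor and 4.66 and 4.79 in controls. The inhibitor arrays lay on either side of the controls, and the difference was 0.025 (95% interval -0.54 to 0.59). MMP9, gelatinase B, had 5.08 and 5.30 against 5.28 and 5.29, a difference of -0.095 (95% interval -0.45 to 0.26).

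Membrane-type MMPs sit on the cell surface, MMP14, MMP15, MMP16 and MMP24 through a transmembrane segment and MMP17 and MMP25 through a lipid anchor. MMP14 activates proMMP2 and cleaves collagen at the leading edge of invading cells. It had 9.94 on both inhibitor arrays, against 10.04 and 10.16 in control arrays. The difference of -0.16 (SE 0.142, 95% interval -0.50 to 0.18; adjusted p = 0.58) did not pass. It equals about the median of -0.165 over all features above the median level, and it was 0.07 after quantile normalization, so it has no settled direction.

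MMP16 had 7.65 and 7.63 in inhibitor arrays and 7.71 and 7.78 in control arrays, and its difference of -0.105 also changed sign, to 0.07, after quantile normalization. MMP24, known from the nervous system, had 3.53 and 4.32 with the inhibitor against 4.49 and 4.45 in controls. Its difference of -0.545 (95% interval -1.15 to 0.06) was -0.15 once inhibitor array 1 was left out and -0.94 once inhibitor array 2 was. MMP17 had 5.94 and 4.86 in inhibitor arrays and 5.51 and 5.61 in control arrays (difference -0.16, 95% interval -0.93 to 0.61). MMP25, first found in leukocytes, had 5.41 and 5.70 against 5.29 and 5.33 (difference 0.245, 95% interval -0.14 to 0.63), and MMP15 differed by 0.105.

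Of the other 5 MMPs, 4 were dim. MMP19 was the exception, with 4.49 and 4.63 in inhibitor arrays and 4.74 and 4.85 in control arrays (difference -0.235, 95% interval -0.58 to 0.11). Enamelysin (MMP20), which processes the enamel matrix of teeth, differed by 0.025, and MMP21, needed for left-right patterning of the embryo, by 0.21. MMP27 differed by -0.24 and MMP28, epilysin of the skin, by -0.145, and the groups overlapped in all 4 dim genes.

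**Figure D2:**
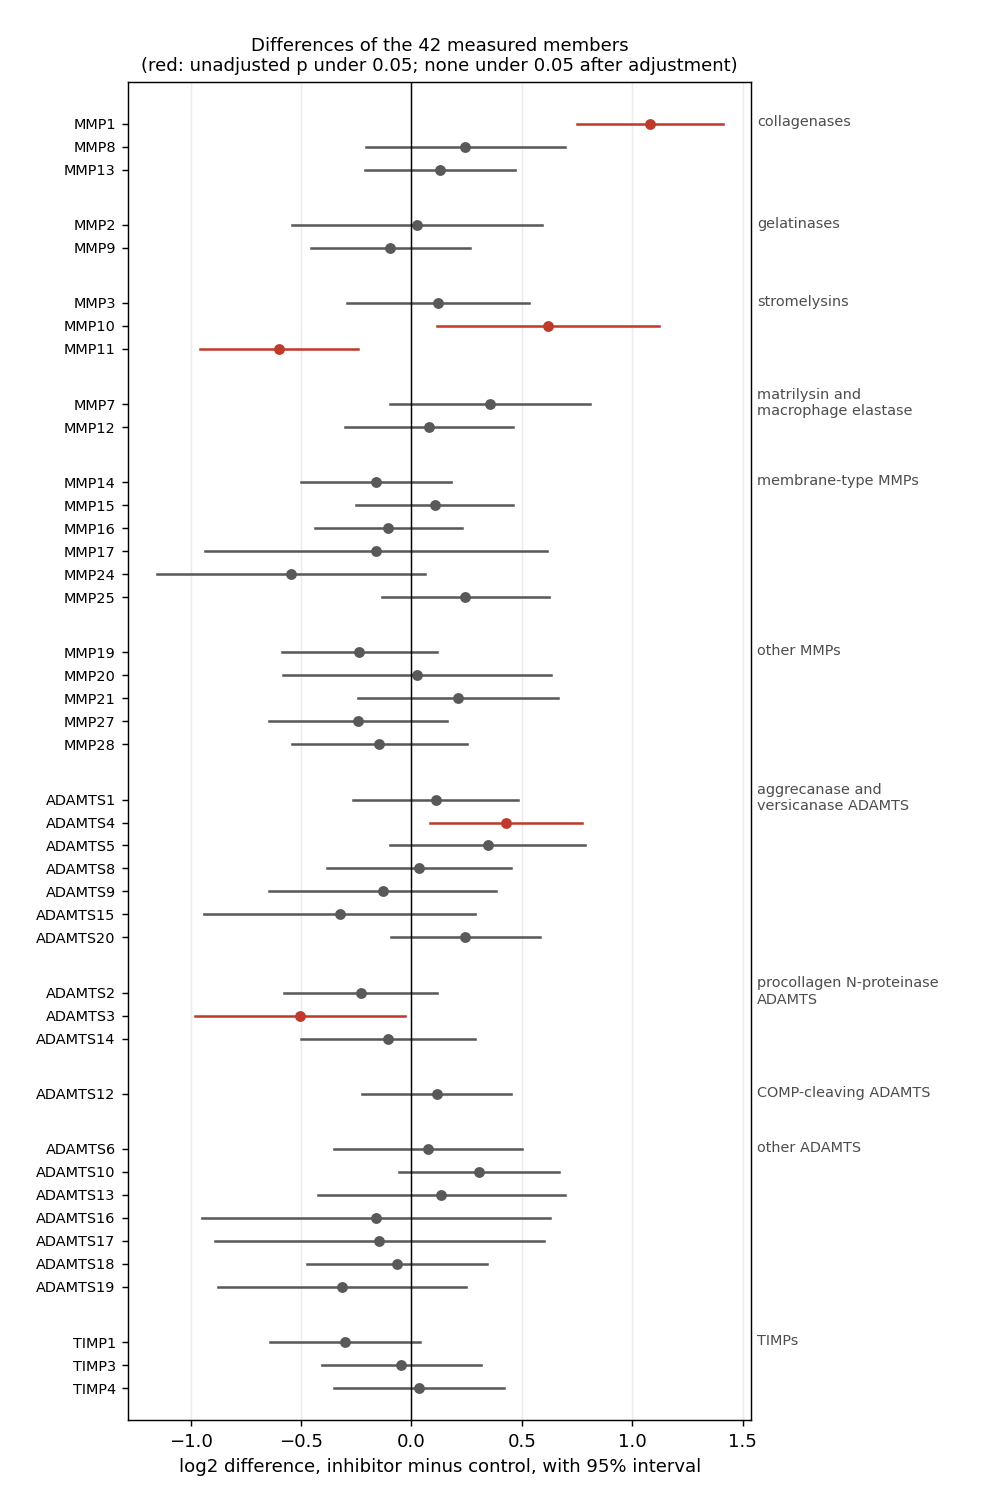
Log2 difference of each measured gene, inhibitor minus control (horizontal axis), as a point with its 95% interval from limma's moderated test, grouped by role; red marks an unadjusted p under 0.05. The intervals of MMP1, MMP10 and ADAMTS4 lie above 0 and those of MMP11 and ADAMTS3 below it, and all other intervals include 0.

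Among the ADAMTS proteases that cut aggrecan and versican, 5 of 7 were higher and 2 lower, with a median of 0.11, and 0 passed after adjustment. ADAMTS4, an aggrecanase, had 4.48 and 4.39 in inhibitor arrays, against 4.07 and 3.94 in control arrays. The groups did not overlap, and the difference was 0.43 (SE 0.145, 95% interval 0.08 to 0.78), or 1.35-fold, with an adjusted p of 0.22. ADAMTS5, the other main aggrecanase, had 5.27 and 5.01 with the inhibitor and 4.98 and 4.61 in controls (difference 0.345, 95% interval -0.10 to 0.79).

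ADAMTS1, which cleaves versican in ovulation and is described as an inhibitor of angiogenesis, had 8.31 and 8.58 with the inhibitor and 8.34 and 8.33 in controls. The groups overlapped, and the difference was 0.11 (95% interval -0.26 to 0.48). ADAMTS8 differed by 0.035, ADAMTS9 by -0.13, ADAMTS15 by -0.325 and ADAMTS20 by 0.245, of which ADAMTS9 and ADAMTS20 are dim. ADAMTS15 had 4.53 and 3.81 in inhibitor arrays and 4.32 and 4.67 in control arrays, and its difference was 0.035 once inhibitor array 2 was left out.

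The procollagen N-proteinases remove the amino-terminal propeptide of fibrillar procollagens. All 3 were lower (median -0.23), as were 12764 of all 21448 features. ADAMTS3, which also has a role in the activation of the lymphatic growth factor VEGF-C, had 3.14 and 3.65 in inhibitor arrays, against 3.83 and 3.97 in control arrays. The inhibitor arrays were both below, but 0.51 apart. The difference was -0.505 (SE 0.199, 95% interval -0.98 to -0.03; adjusted p = 0.26), the gene is dim, and leaving out inhibitor array 1 or 2 gave -0.25 or -0.76. ADAMTS2 had 5.14 and 5.29 against 5.41 and 5.48 (difference -0.23, 95% interval -0.58 to 0.12), and ADAMTS14 differed by -0.105 with overlapping groups.

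None of the remaining 8 ADAMTS genes passed, even without adjustment. ADAMTS12, which cleaves cartilage oligomeric matrix protein, had 7.58 and 7.64 in inhibitor arrays and 7.45 and 7.54 in control arrays, a difference of 0.115 (95% interval -0.22 to 0.45). ADAMTS6 had 7.21 and 7.22 with the inhibitor and 6.93 and 7.35 in controls. ADAMTS10, tied to fibrillin microfibrils, had 6.69 and 6.48 against 6.33 and 6.23. It was the only gene of these with no overlap besides ADAMTS12, at a difference of 0.305 (95% interval -0.06 to 0.67; adjusted p = 0.34).

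ADAMTS17, like ADAMTS10 a gene of Weill-Marchesani syndrome, had 6.05 and 5.41 with the inhibitor and 6.28 and 5.47 in controls, so arrays of the same group differed by more than the groups did. ADAMTS16 behaved alike (5.08 and 6.10, against 5.53 and 5.97). ADAMTS13, the protease that trims von Willebrand factor, had 3.65 and 2.95 against 3.17 and 3.16 and is dim. ADAMTS18 differed by -0.065 and ADAMTS19 by -0.315, with overlap in both.

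TIMP1, which inhibits most secreted MMPs but MMP14 only weakly, had 9.96 on both inhibitor arrays, against 10.20 and 10.32 in control arrays. Both inhibitor values were lower. The difference was -0.30 (SE 0.142, 95% interval -0.64 to 0.04; adjusted p = 0.33), beside a median of -0.165 over all features above the median level, and it was -0.07 after quantile normalization. TIMP3, which stays bound to the matrix and also inhibits ADAMTS4 and ADAMTS5, had 5.10 and 5.04 with the inhibitor and 5.22 and 5.01 in controls. TIMP4 had 5.54 and 5.56 against 5.67 and 5.36. In TIMP3 and TIMP4 the groups overlapped, with differences of -0.045 (95% interval -0.40 to 0.31) and 0.035 (-0.35 to 0.42).

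**Figure D3:**
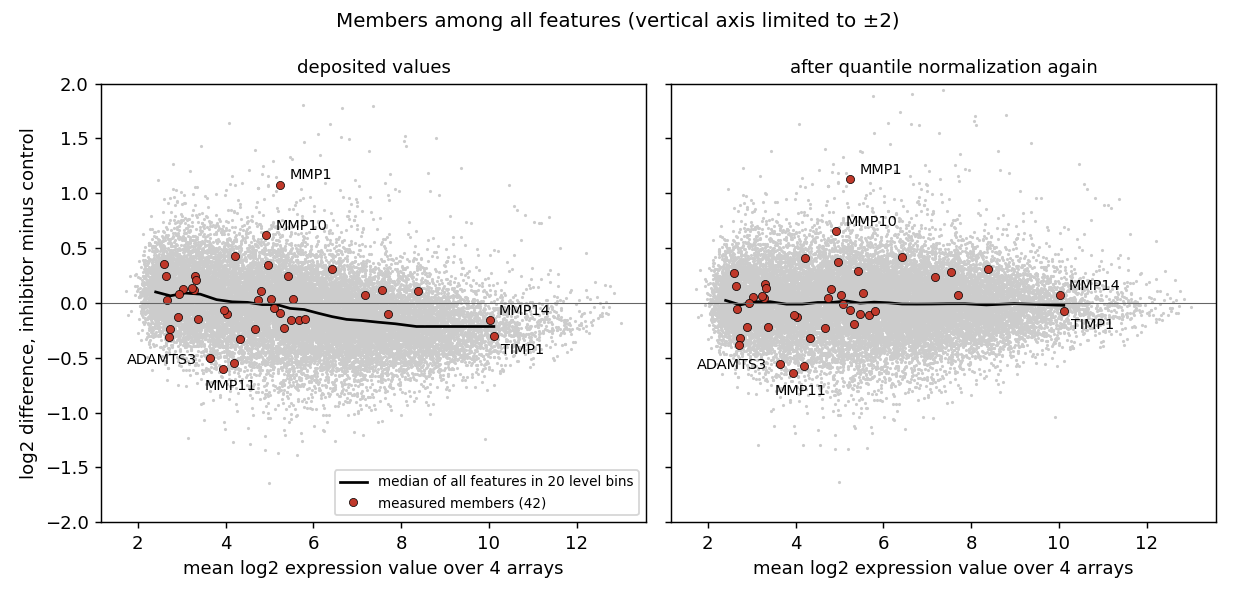
Log2 difference, inhibitor minus control (vertical axis), against the mean log2 expression value over the 4 arrays (horizontal axis), for all features in grey and the 42 measured genes in red, with the deposited values on the left and values quantile-normalized again on the right; the line joins medians of all features in 20 level bins. In the deposited values the line falls with level, and TIMP1 and MMP14 lie at its bright end near -0.30 and -0.16, but near 0 on the right, while MMP1 stays above 1 in both.

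In the deposited values the difference depended on level across the whole array: the median was 0.07 over dim features, -0.01 over those between the 25th percentile and the median, and -0.165 above the median. The 42 genes had medians of 0.08, -0.01 and -0.105 in the same classes (15, 18 and 9 genes). After quantile normalization the median of all features above the median level was -0.01, and that of the 9 bright genes was 0.07.

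A run of 9 MMP genes lies side by side on chromosome 11, in the band 11q22, with no other protein-coding gene between the first and the last in RefSeq. In chromosomal order these are MMP7, MMP20, MMP27, MMP8, MMP10, MMP1, MMP3, MMP12 and MMP13. Of the 9 genes 8 were higher with the inhibitor (88.9%, against 40.5% of all features) and 1, MMP27, lower. Their median was 0.13, or 0.05 after quantile normalization, where MMP12 (-0.00375) and MMP20 (-0.054) also turned lower. Dim features as a whole had a median of 0.07 in the deposited values. The neighbours MMP10 and MMP1 differed by 0.62 and 1.08, and the other 7, all dim, by -0.24 to 0.355. In 4 of the 9, MMP7, MMP10, MMP1 and MMP13, both inhibitor arrays lay above both controls, against 16.5% of all features. Those features were not matched in level to the 9. These genes are close paralogs, and probe sequences were not used here, so cross-hybridisation between them was not tested.

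**Figure D4:**
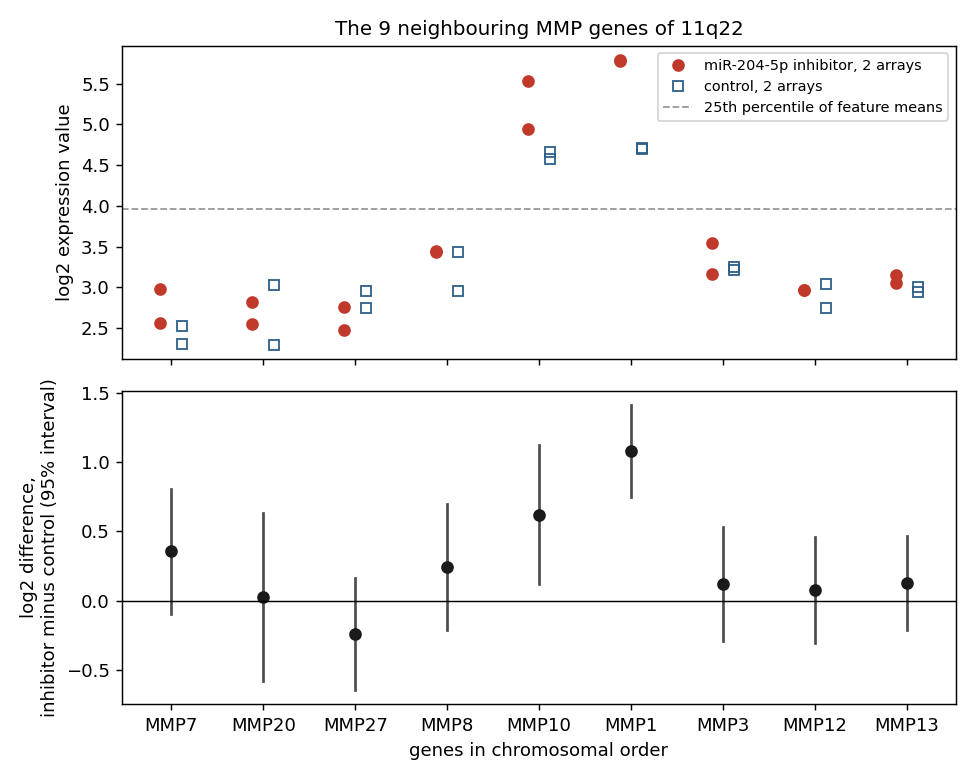
The 9 neighbouring MMP genes of 11q22 in chromosomal order (horizontal axis), with log2 expression values above (filled circles for 2 inhibitor arrays, open squares for 2 control arrays, dashed line at 3.965) and log2 differences, inhibitor minus control, with 95% intervals below. MMP10 and MMP1 are the only genes above the dashed line on all 4 arrays, and theirs are the intervals that lie above 0.

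Promoters of inducible MMP genes are known for a binding site of AP-1, the factor made of FOS and JUN proteins, close upstream of the start site. The motif TGANTCA, which reads the same on both strands, was searched in RefSeq windows of 250 bases before to 50 bases after the start. It was in 4 of 26 windows (15.4%) for 25 of the 44 genes, and in 7.71% of all 35116 windows. The 4 were those of MMP7, MMP10, MMP20 and ADAMTS12, and 3 of them are among the 5 windows from the 11q22 genes. MMP1 was not among the 25 genes searched. The ETS core GGAAG, searched on both strands, was in 80.8% of the windows of these genes and 71.9% of all. A match of letters is a description and shows no binding.

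The 120 bases upstream of the start are printed for the 4 genes with TGANTCA. They are also printed for MMP11 and ADAMTS3, lower at an unadjusted p under 0.05, whose windows do not hold it. All are GRCh38.p14, read on the gene's strand, with both motifs, on either strand, in capitals. They lie at chr11:102780629-102780748 (MMP10, minus strand), chr11:102530748-102530867 (MMP7, minus), chr11:102625333-102625452 (MMP20, minus), chr5:33891991-33892110 (ADAMTS12, minus), chr22:23772729-23772848 (MMP11, plus) and chr4:72569222-72569341 (ADAMTS3, minus).
MMP10: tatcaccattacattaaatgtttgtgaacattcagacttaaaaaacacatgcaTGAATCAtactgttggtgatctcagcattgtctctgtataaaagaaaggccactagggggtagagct
MMP7: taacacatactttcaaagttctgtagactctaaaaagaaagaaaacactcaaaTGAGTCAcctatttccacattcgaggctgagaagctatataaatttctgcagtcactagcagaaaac
MMP20: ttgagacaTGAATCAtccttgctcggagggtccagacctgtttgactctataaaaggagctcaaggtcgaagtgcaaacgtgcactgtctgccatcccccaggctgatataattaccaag
ADAMTS12: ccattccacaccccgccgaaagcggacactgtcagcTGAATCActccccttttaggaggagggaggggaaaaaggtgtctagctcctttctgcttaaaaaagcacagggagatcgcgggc
MMP11: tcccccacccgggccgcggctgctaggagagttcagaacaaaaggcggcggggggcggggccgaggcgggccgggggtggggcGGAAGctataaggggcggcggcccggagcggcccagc
ADAMTS3: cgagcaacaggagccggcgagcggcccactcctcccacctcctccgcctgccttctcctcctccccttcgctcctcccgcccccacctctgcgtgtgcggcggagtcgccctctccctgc
Counted from the start site, TGANTCA begins at position -67 in both MMP10 and MMP7, at -112 in MMP20 and at -84 in ADAMTS12. Of these genes MMP10 had a difference of 0.62 and the others of 0.025 to 0.355. Windows without the motif went with both directions. They include those of ADAMTS10 (0.305) and MMP8 (0.245), and those of MMP24 (-0.545) and MMP27 (-0.24).

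Of 13 measured factors, those of the AP-1 and ETS families and RUNX2, 2 were higher and 11 lower, and 0 passed after adjustment. At an unadjusted p under 0.05, 1 was higher and 5 were lower, beside 5.11% and 12.8% of all features. Their median was -0.34, or -0.16 after quantile normalization, and 12 of the 13 lie above the median level, where all features had a median of -0.165. ETV4, an ETS factor of the PEA3 group, had 7.05 and 6.98 in inhibitor arrays, against 7.76 and 7.85 in control arrays (difference -0.79, SE 0.142, adjusted p = 0.13). ETV1, of the same group, differed by -0.585 and the AP-1 protein JUND by 0.56. With the prior that follows level, 1 rose (JUND) and 5 fell, ETV4 with an adjusted p of 0.0048, beside 7.11% of all features. With quantile normalization joined to that prior, ETV4 (adjusted p = 0.023) and JUND (0.041) passed, and ETV1, ETV5, JUN and FOSL1 did not (0.12 to 0.26).

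Among 9 measured cytokines and growth factors chosen as known inducers of MMP genes, 6 were higher and 3 lower (median 0.275). IL6 alone passed after adjustment in the deposited values. IL6 had 6.87 and 7.06 in inhibitor arrays, against 4.24 and 3.83 in control arrays. The difference was 2.93 (SE 0.185, adjusted p = 0.028), the highest of all features. IL6 no longer passed after quantile normalization (adjusted p = 0.058), where 0 of all features did. It passed after cyclic loess (0.048), with equal medians (0.048) and with the prior that follows level (1.9e-05). With that prior 7.11% of all features passed. Fits with 1 array left out cannot decide whether IL6 passes, since 1 group then holds 1 array. FGF2 differed by 0.305 and EGF by 0.36. With quantile normalization joined to the prior that follows level, IL6 (adjusted p = 2.5e-05), IL1B (0.014), IL1A (0.021) and FGF2 (0.030) passed. The others of this list did not, and 2.61% of all features passed there.

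Genes that control MMPs outside the cell had values in both directions. Of 9 measured activators and surface regulators, 2 were higher and 7 lower (median -0.135, or -0.077 after cyclic loess), and 0 passed after adjustment. TFPI2, a Kunitz-type inhibitor in the matrix that blocks plasmin, had 11.53 and 11.59 in inhibitor arrays, against 10.75 and 10.92 in control arrays. The groups were well apart, at a difference of 0.725 (SE 0.147, adjusted p = 0.14). TFPI2 rose in the fit with the level-dependent prior (adjusted p = 0.00072), also with quantile normalization joined to it (3.8e-05). RECK, a membrane-anchored inhibitor of MMPs, had 4.93 and 5.54 with the inhibitor and 5.63 and 5.89 in controls (difference -0.525, adjusted p = 0.29). BSG, a surface protein that induces MMPs in neighbouring cells, differed by -0.29.

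Plasmin, made from plasminogen, activates several proMMPs. Of 9 measured genes of this system, 2 were higher and 7 lower, with 2 lower at an unadjusted p under 0.05, beside 12.8% of all features, and 0 past the adjusted threshold. Their median was -0.24, but -0.083 after quantile normalization and -0.067 after cyclic loess. SERPINF2, which inhibits plasmin, differed by -0.445, the plasminogen activator PLAT by -0.40, and SERPINE2, an inhibitor of plasminogen activators, by 0.38. With quantile normalization joined to the prior that follows level, SERPINE2 passed (adjusted p = 0.015). SERPINF2 and PLAT did not (0.30 and 0.34). Among 15 measured matrix substrates, 6 were higher and 9 lower, and 0 passed. Their median of -0.08 turned to 0.087 after quantile normalization and 0.099 after cyclic loess, so the list has no settled direction. The proteoglycan BCAN differed by -0.545, the basement membrane collagen COL4A1 by -0.51 and fibronectin (FN1) by 0.375. With the prior that follows level FN1 passed (adjusted p = 0.022), as did 7.11% of all features. FN1 also passed with quantile normalization joined to that prior (0.00088, with 2.61% passing).

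**Figure D5:**
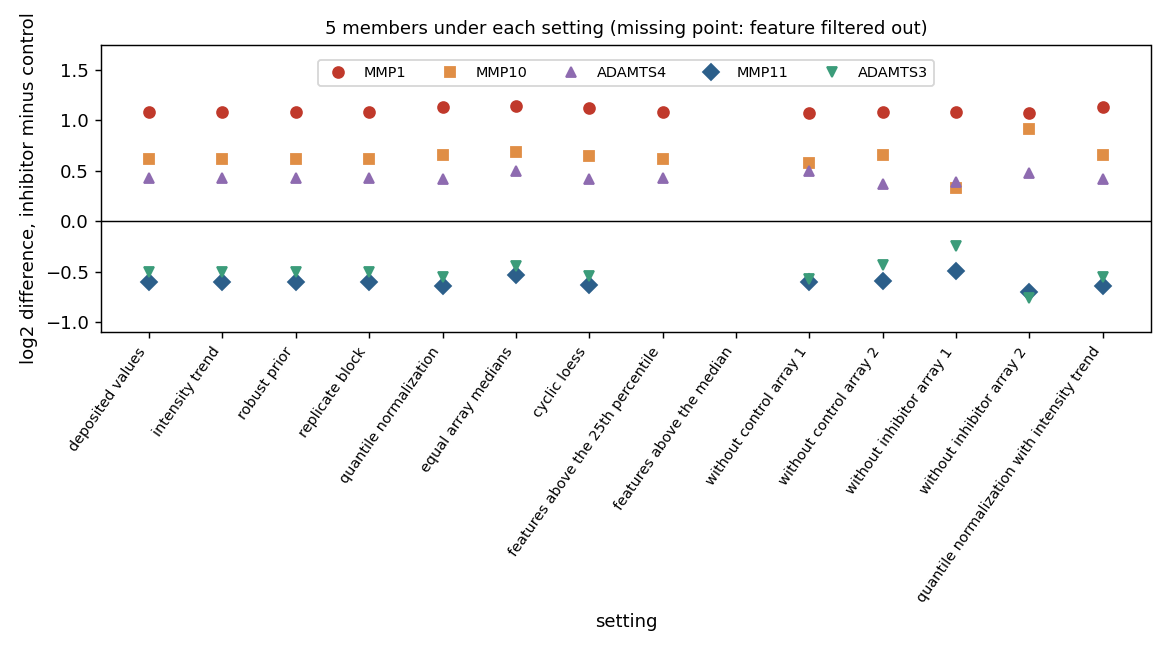
Log2 difference, inhibitor minus control (vertical axis), of MMP1, MMP10, ADAMTS4, MMP11 and ADAMTS3 under each setting (horizontal axis); a gene has no point where the filter removed it, as for all 5 above the median level. MMP1 stays between 1.075 and 1.145, while MMP10 ranges from 0.33 to 0.91 and ADAMTS3 from -0.76 to -0.25 as inhibitor array 1 or 2 is left out.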

How the data were processed

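Total RNA of 4 samples was measured on Clariom S human arrays (Affymetrix). The deposited values are log2 expression values; per the submitters' processing notes, the authors made them by RMA with version 4.0 of Transcriptome Analysis Console. Parameters and genome build are not given in the sources used here. Symbols came from the platform annotation (17709 features with 1 symbol, 3739 without), and each gene named here had 1 feature.

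The difference between inhibitor and control arrays was fitted by limma 3.58.1 under R 4.3.3 (lmFit, eBayes, no replicate block, no filter) over all 21448 features, with 2 residual and 4.78 prior degrees of freedom and Benjamini-Hochberg adjustment over all of them. The labels do not say whether replicate numbers pair the arrays. The procedure was tested on simulated data. Other settings were an intensity trend or robust prior, the block, quantile normalization, equal medians, cyclic loess, filters on dim features and leaving out each array.

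The members, gene lists and motifs were chosen with earlier results of these data known. Values on every array were given at least for members with an unadjusted p under 0.05, the 8 with the highest mean and all TIMPs, and at most 3 genes of each other list were named, those with the largest moderated statistic. ETV5, JUN, FOSL1, RUNX2, IL1A, IL1B and the cell markers were named outside this rule, after their values were seen.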

Additional observations from a re-analysis of the deposited data

How the results depend on the processing

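MMP1 was the only one of the 42 genes to change its call in any setting run. The count of all features past the threshold, 11, became 1525 with an intensity trend, 38 above the 25th percentile, 1011 above the median, 559 with quantile normalization and trend together (chosen after seeing the data), 0 with the replicate block, 0 after quantile normalization and 0 in each fit without 1 array. For the 42 genes the count of 0 became 1 with the trend, above the 25th percentile and with quantile normalization and trend together, MMP1 in each. The 3 genes higher at an unadjusted p under 0.05 became 1 above the median level, 5 with quantile normalization and trend together, and 1 to 7 without 1 array (1 without control array 1 or 2, 7 without inhibitor array 2). The 2 lower became 1 with equal medians, 0 above the 25th percentile, 1 above the median, and 0 to 3 without 1 array (0 without control array 2, 3 without inhibitor array 1 or 2). The median difference of 0.025 became 0.044 after quantile normalization, 0.044 after cyclic loess, 0.09 with equal medians, -0.045 above the 25th percentile, -0.105 above the median, 0.044 with quantile normalization and trend together, and -0.06 to 0.065 without 1 array.

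Of 498 recomputed differences, 459 kept their sign, and 19 genes kept it throughout, among them MMP1, MMP10, MMP11, ADAMTS3, ADAMTS4 and TIMP1. Signs changed after quantile normalization, with or without the trend, for MMP16 (0.073), MMP14 (0.072), MMP20 (-0.054) and MMP12 (-0.00375). After cyclic loess they did so for MMP16 (0.083), MMP14 (0.054) and MMP20 (-0.060), and with equal medians for TIMP3 (0.020). The cause was not tested. Leaving out 1 array, 21 genes spanned 0. Among MMPs the ranges were -0.325 to 0.375 for MMP2, -0.07 to 0.31 for MMP3, -0.205 to 0.015 for MMP9, -0.07 to 0.23 for MMP12, -0.70 to 0.38 for MMP17, -0.345 to 0.395 for MMP20, -0.02 to 0.44 for MMP21 and -0.31 to 0.02 for MMP28. Among ADAMTS genes they were -0.025 to 0.245 for ADAMTS1, -0.135 to 0.285 for ADAMTS6, -0.14 to 0.21 for ADAMTS8, -0.36 to 0.10 for ADAMTS9, -0.215 to 0.485 for ADAMTS13, -0.27 to 0.06 for ADAMTS14, -0.685 to 0.035 for ADAMTS15, -0.67 to 0.35 for ADAMTS16, -0.55 to 0.26 for ADAMTS17, -0.25 to 0.12 for ADAMTS18 and -0.665 to 0.035 for ADAMTS19. For TIMP3 and TIMP4 they were -0.15 to 0.06 and -0.12 to 0.19. Same-numbered arrays did not deviate together (correlation of deviations 0.0058). With 2 arrays per group, this cannot decide whether the numbers pair them. The replicate block gave both MMP1 and IL6 an adjusted p of 0.32 in limma. MMP11, ADAMTS4 and TFPI2 had the same adjusted p there, so it does not tell these genes apart. Signal over background was not analysed here, which limits what the 15 dim genes can show.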

Other observations

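Other enzymes and relatives of the matrix proteases were also measured. Of 11 genes of the ADAM family, whose active proteases shed membrane proteins, 2 were higher and 9 lower with the inhibitor. Of these genes 0 passed the adjusted threshold in limma. Their median log2 difference of -0.11 changed sign with the scaling, to 0.061 by quantile normalization or 0.068 by cyclic loess, and 10 of the 11 lie above the median level, where all features had a median of -0.165. ADAM12 had 7.20 and 7.05 in inhibitor arrays, against 7.68 and 7.57 in control arrays (difference -0.50, adjusted p = 0.19). With the prior that follows level ADAM12 passed (0.039), but not with quantile normalization joined to it (0.23). ADAM23 differed by -0.525 with overlapping groups and ADAM33 by 0.25. Of 6 ADAMTS-like proteins, which lack the protease domain, 2 were higher and 4 lower (median -0.30). ADAMTSL1 had 9.05 and 9.04 in inhibitor arrays, against 9.41 and 9.52 in control arrays (difference -0.42, adjusted p = 0.22). It passed with the prior that follows level (0.023), but not with quantile normalization joined to that prior (0.22). ADAMTSL3 and ADAMTSL2 differed by -0.405 and -0.37. Of 11 further matrix-degrading enzymes, 6 were higher and 5 lower (median 0.055, or 0.20 after quantile normalization). The meprins MEP1A and MEP1B differed by 0.595 and 0.35, at low values between 2.63 and 3.70, and the serine protease HTRA1 by -0.35.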
